A study of Mus musculus with 18 samples.

Results

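Aminoacyl-tRNA synthetases are the enzymes that load each amino acid onto its transfer RNA. They were taken from an array study of mouse aorta as every probe set whose single annotated gene symbol is a capital letter followed by ars, with or without a final 1 or 2, or is Eprs, Farsa or Farsb. This gave 48 probe sets of 26 genes, among 22690 probe sets and 12393 genes in all. By name, 18 genes (35 probe sets) encode cytosolic enzymes and 8 genes (13 probe sets), whose symbols end in 2, encode mitochondrial ones. A log2 value above 4 in at least 3 of the 18 samples was reached by 39 probe sets, and 22 genes were tested, 17 cytosolic and 5 mitochondrial. The untested genes were the cytosolic Vars and the mitochondrial Ears2, Pars2 and Sars2. Synthetases other than these 26 genes were not analysed here.

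The aortas came from wild-type male C57Bl/6 mice. All mice had carried a subcutaneous pellet releasing spironolactone, a drug that blocks the mineralocorticoid receptor, at 20 mg/kg/day for 5 days, so every group shares that treatment. The tissue was then cultured with aldosterone at 100 nM for 2, 4 or 8 h, or with vehicle for 2, 4 or 8 h. Each of the 6 groups held 3 samples, each a pool of 3 aortas, and all 18 samples had been in culture, so the comparisons over time start at 2 h of culture. The study asked which genes aldosterone, the agonist of that receptor, changes in the vessel. With vehicle, the comparison between hours gives the change in culture without added hormone. With aldosterone, the hours in culture are also the hours of hormone, and the 2 cannot be told apart within those samples.

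Each synthetase recognises its amino acid and the transfer RNAs that carry it, and in animal cells the cytosolic and mitochondrial enzymes for an amino acid are mostly products of separate nuclear genes. Gars and Kars are exceptions whose genes supply both compartments, and they are counted with the cytosolic enzymes here. Several cytosolic enzymes sit together in the multi-synthetase complex, held by the scaffold proteins Aimp1, Aimp2 and Eef1e1. When amino acids run short or proteins misfold, the transcription factor ATF4 is made and raises genes of amino acid uptake and synthesis, and many cytosolic synthetase genes are among its known targets.

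Values are log2 expression estimates. Differences are log2 differences ± SE from a limma fit to all 18 samples, in which 1 spread per gene is shared by the groups, and a gene is called where its p, adjusted over the 7092 genes tested by Benjamini-Hochberg, is under 0.05. Vehicle 2 h replicate 1 stood apart from its mates. Its median over all probe sets was 4.42, against 4.01 to 4.09 in the other 17 samples, and 908 genes in it lay more than 1 from the mean of the other 2 vehicle 2 h samples. Counts that rest on the vehicle 2 h group are also given without it, and single values where leaving it out changed a call or moved a value by over 1.5 times. Time in culture was the main axis of the data: 65.19% of the variance lay on a first principal component that placed the samples in the order 2, 4 and 8 h. The smooth muscle markers were high in all samples (mean of 7 genes between 10.82 and 12.11), as the tissue label says, and 0 of 4 lymphocyte markers passed the filter.

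Between 2 and 8 h in culture, nearly all tested cytosolic synthetases rose, and 0 of 5 tested mitochondrial ones did. With aldosterone, 15 of 17 tested cytosolic genes were higher at 8 h than at 2 h, with a median log2 difference of 2.47 over the 17. Of the 5 mitochondrial genes, 0 were higher and 1, Fars2, was lower (median -0.03). Over all 7092 genes in that comparison 29.2% were called higher and 27.3% lower, and the median was 0.02. With vehicle, 17 of 17 cytosolic genes were higher at 8 h than at 2 h (median 2.46, a 5.48-fold change), and of the 5 mitochondrial genes 0 were higher and 1, again Fars2, was lower (median -0.06). The shares over all genes were 26.6% higher and 31.9% lower, with a median of -0.07. Without vehicle 2 h replicate 1, the vehicle comparison called 17 of 17 cytosolic genes higher (median 2.80) and 1 of 5 mitochondrial genes lower (median 0.10), where 32.4% of all genes were higher and 28.6% lower. Farsa passed the filter only through its 8 h samples and Yars only through those at 4 and 8 h, so their rises were bound up with the filter. Of the other 15 cytosolic genes, 13 were higher with aldosterone and 15 with vehicle. With Farsa and Yars at their lower bounds the cytosolic median was 2.22 with aldosterone and 2.44 with vehicle. In bulk tissue, fewer cells of a type and less RNA per cell cannot be told apart.

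**Figure D1:**
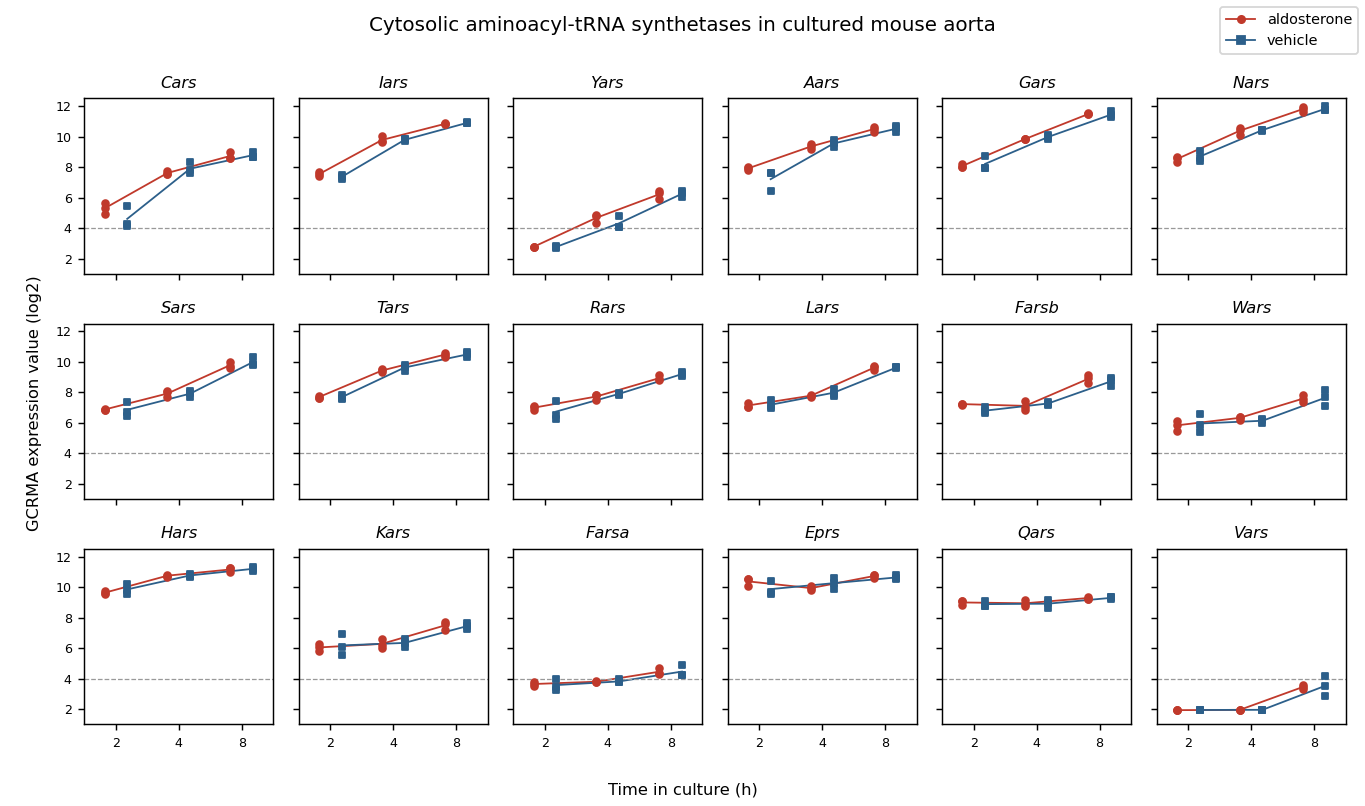
Log2 expression value (vertical axis) of the 18 cytosolic synthetase genes against hours in culture (horizontal axis, the 3 times evenly spaced). Points are single samples with aldosterone (red circles) or vehicle (blue squares), lines join the 3 group means, and the dashed line is the filter level of 4. Most genes climb at each step with both treatments, Eprs and Qars move little, and Vars stays near 2 until 8 h.

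Cars, which charges cysteine, had the largest change with vehicle. With aldosterone its values were 5.34, 4.93 and 5.63 at 2 h, 7.58, 7.56 and 7.72 at 4 h and 8.62, 8.58 and 9.01 at 8 h, and with vehicle they were 5.43, 4.14 and 4.27 at 2 h, 7.78, 7.60 and 8.32 at 4 h and 9.02, 8.66 and 8.69 at 8 h. The 8 h samples lay above all 2 h samples of their treatment. The 8 h over 2 h difference was 3.44 ± 0.28 with aldosterone (adjusted p = 1.75e-08) and 4.17 ± 0.28 with vehicle (adjusted p = 1.56e-09). Iars, the isoleucine enzyme of the multi-synthetase complex, had 7.68, 7.39 and 7.55 at 2 h, 9.71, 9.62 and 10.01 at 4 h and 10.82, 10.88 and 10.80 at 8 h with aldosterone. With vehicle, Iars had 7.51, 7.23 and 7.35 at 2 h, 9.84, 9.71 and 9.81 at 4 h and 10.97, 10.87 and 10.88 at 8 h. Its samples lay close together within each group, with no overlap between hours, and its 8 h over 2 h difference was 3.29 ± 0.12 with aldosterone and 3.54 ± 0.12 with vehicle (adjusted p = 8.71e-13 and 1.96e-13, both higher).

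Yars, which charges tyrosine, was not measurable at the start. With aldosterone it had 2.79, 2.76 and 2.79 at 2 h, 4.86, 4.81 and 4.37 at 4 h and 5.88, 6.32 and 6.47 at 8 h, and with vehicle 2.72, 2.80 and 2.81 at 2 h, 4.79, 4.09 and 4.09 at 4 h and 6.47, 6.28 and 6.02 at 8 h. All 6 values at 2 h were under the filter level, so the fold is a lower bound. Yars was at least 4.67-fold higher at 8 h with aldosterone (fitted 3.44 ± 0.21). With vehicle it was at least 4.78-fold higher (fitted 3.48 ± 0.21). No p is given, since Yars passed the filter only through its 4 and 8 h samples. Aars, the alanine enzyme, had 8.01, 7.80 and 7.94 at 2 h, 9.16, 9.42 and 9.49 at 4 h and 10.30, 10.52 and 10.65 at 8 h with aldosterone, and 6.43, 7.62 and 7.59 at 2 h, 9.58, 9.30 and 9.77 at 4 h and 10.73, 10.55 and 10.29 at 8 h with vehicle. It rose by 2.58 ± 0.24 with aldosterone and 3.31 ± 0.24 with vehicle. The low vehicle 2 h value belongs to replicate 1. On a second Aars probe set the same sample was the highest of its group, with 7.83, 6.95 and 6.94 in the vehicle 2 h samples, and that probe set gave 2.88 ± 0.21 for the vehicle change.

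Gars, the glycine enzyme of both compartments, had 8.20, 8.02 and 8.03 at 2 h, 9.85, 9.85 and 9.86 at 4 h and 11.47, 11.46 and 11.52 at 8 h with aldosterone. With vehicle Gars had 8.75, 7.93 and 7.97 at 2 h, 10.08, 9.85 and 9.99 at 4 h and 11.65, 11.27 and 11.39 at 8 h. It rose in each step of time, by 3.40 ± 0.17 over the whole course with aldosterone and 3.22 ± 0.17 with vehicle (adjusted p = 3.13e-11 and 5.23e-11). Kars, the lysine enzyme of both compartments and a complex member, had 6.26, 6.06 and 5.82 at 2 h, 6.01, 6.60 and 6.23 at 4 h and 7.16, 7.59 and 7.70 at 8 h with aldosterone, and 6.95, 6.04 and 5.54 at 2 h, 6.11, 6.60 and 6.32 at 4 h and 7.62, 7.44 and 7.28 at 8 h with vehicle. Kars rose less, by 1.44 ± 0.27 with aldosterone and 1.27 ± 0.27 with vehicle (adjusted p = 2.40e-04 and 7.24e-04), and its 4 h samples overlapped those at 2 h in both treatments.

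Iars, Yars, Aars and Gars are the called genes with the largest fitted vehicle changes whose promoter window holds the letters TGATGNAA on either strand. The size of the Yars change is known only as a lower bound. These letters are the core of the C/EBP-ATF response element through which ATF4 acts. The windows run from 250 bases before to 50 bases after the annotated gene start, on the strand of the gene, from RefSeq (GRCm38.p6), and capitals mark the matched letters. Positions are of the first base of a match in the window, counted from the gene start. The Iars window lies at chr13:49681880-49682179 on the plus strand, with a match at position 8. The Yars window lies at chr4:129189653-129189952, plus strand, with a match at position 4. The Aars window lies at chr8:111033592-111033891, plus strand, with 2 matches, at positions -112 and 10. The Gars window lies at chr6:55037751-55038050, plus strand, with a match at position -30. The Yars match reads TGATGNAA along the gene, and the others read its reverse complement, TTNCATCA.
Iars: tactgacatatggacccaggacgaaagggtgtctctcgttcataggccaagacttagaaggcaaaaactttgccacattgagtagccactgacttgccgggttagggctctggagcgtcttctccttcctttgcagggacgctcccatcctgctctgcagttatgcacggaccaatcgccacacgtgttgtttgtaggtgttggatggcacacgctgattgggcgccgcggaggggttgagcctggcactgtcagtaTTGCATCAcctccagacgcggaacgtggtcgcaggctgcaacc
Yars: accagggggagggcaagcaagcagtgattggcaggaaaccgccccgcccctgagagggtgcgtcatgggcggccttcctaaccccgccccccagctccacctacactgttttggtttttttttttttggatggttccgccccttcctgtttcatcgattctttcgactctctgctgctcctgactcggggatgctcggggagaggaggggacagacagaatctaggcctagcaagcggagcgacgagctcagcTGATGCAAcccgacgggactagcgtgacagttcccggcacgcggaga
Aars: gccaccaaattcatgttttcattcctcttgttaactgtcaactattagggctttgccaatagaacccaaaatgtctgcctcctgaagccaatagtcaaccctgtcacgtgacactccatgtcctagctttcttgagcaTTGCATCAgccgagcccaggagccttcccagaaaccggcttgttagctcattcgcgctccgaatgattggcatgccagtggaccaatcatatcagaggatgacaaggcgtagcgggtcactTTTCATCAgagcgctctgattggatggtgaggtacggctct
Gars: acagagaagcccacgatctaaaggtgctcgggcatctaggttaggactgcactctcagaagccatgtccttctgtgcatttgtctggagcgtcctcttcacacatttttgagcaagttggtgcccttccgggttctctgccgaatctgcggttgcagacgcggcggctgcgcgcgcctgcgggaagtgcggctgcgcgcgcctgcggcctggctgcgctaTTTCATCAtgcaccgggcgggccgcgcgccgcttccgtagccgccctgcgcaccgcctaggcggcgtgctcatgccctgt
Tars, the threonine enzyme, also has a match, at position -15. Of the 11 cytosolic synthetase genes with a window in the table, 5 held the letters (45.5%), against 0 of 6 mitochondrial genes. Cars, which had the largest vehicle change, had no window. Neither had Nars, Rars, Lars, Wars, Hars and Vars, so the letters could not be looked for in these genes. Among the 5745 tested genes with a window the share was 2.82%, and among all 32851 windows of the table it was 3.97%. A match is a description of these letters and shows no binding, and Sars, which rose by 3.13 with vehicle, has none in its window.

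Nars, which charges asparagine, had 8.61, 8.35 and 8.64 at 2 h, 10.14, 10.57 and 10.46 at 4 h and 11.63, 11.81 and 11.96 at 8 h with aldosterone. With vehicle it had 9.08, 8.58 and 8.41 at 2 h, 10.46, 10.44 and 10.39 at 4 h and 12.00, 11.75 and 11.72 at 8 h. Its rise was 3.27 ± 0.16 with aldosterone and 3.14 ± 0.16 with vehicle, and a second Nars probe set gave 2.82 ± 0.13 with vehicle. Sars, the serine enzyme, had 6.84, 6.94 and 6.85 at 2 h, 7.70, 8.00 and 8.08 at 4 h and 9.63, 9.73 and 10.02 at 8 h with aldosterone, and 7.37, 6.74 and 6.46 at 2 h, 8.08, 7.71 and 7.96 at 4 h and 10.30, 9.86 and 9.80 at 8 h with vehicle. Most of its rise came after 4 h, with 1.86 ± 0.20 of 2.91 with aldosterone and 2.07 ± 0.20 of 3.13 with vehicle.

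Tars had 7.64, 7.78 and 7.66 at 2 h, 9.31, 9.45 and 9.53 at 4 h and 10.35, 10.47 and 10.60 at 8 h with aldosterone. With vehicle Tars had 7.85, 7.59 and 7.61 at 2 h, 9.67, 9.40 and 9.81 at 4 h and 10.65, 10.31 and 10.51 at 8 h. More of its rise came before 4 h than after, in contrast to Sars, and the whole rise was 2.78 ± 0.13 with aldosterone and 2.81 ± 0.13 with vehicle. Rars, the arginine enzyme of the complex, had 6.86, 7.09 and 7.03 at 2 h, 7.50, 7.85 and 7.84 at 4 h and 8.79, 8.89 and 9.12 at 8 h with aldosterone, and 7.43, 6.27 and 6.53 at 2 h, 7.99, 7.86 and 7.86 at 4 h and 9.31, 9.08 and 9.20 at 8 h with vehicle. It rose by 1.94 ± 0.21 with aldosterone and by 2.45 ± 0.21 with vehicle, and its vehicle 2 h samples were the most scattered, replicate 1 being the highest. Lars, the leucine enzyme of the complex, had 7.06, 7.31 and 7.06 at 2 h, 7.85, 7.70 and 7.79 at 4 h and 9.48, 9.70 and 9.64 at 8 h with aldosterone. With vehicle Lars had 7.48, 6.99 and 7.10 at 2 h, 7.92, 7.79 and 8.22 at 4 h and 9.64, 9.66 and 9.58 at 8 h. Its rise was 2.47 ± 0.14 with aldosterone and 2.44 ± 0.14 with vehicle. For Nars, Sars, Tars, Rars and Lars, all 8 h samples lay above all 2 h samples, and the adjusted p was at most 6.01e-07 in either treatment.

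The other 7 tested cytosolic genes rose by 0.41 to 1.92 with vehicle. Farsb, the beta subunit of the phenylalanine enzyme, rose by 1.92 ± 0.18. Farsa, the alpha subunit, was above the filter level in the 6 samples at 8 h and in no other. It is therefore given as at least 1.38-fold higher with vehicle (fitted 0.88 ± 0.20), without a p. Wars, for tryptophan, rose by 1.69 ± 0.27 and Hars, for histidine, by 1.35 ± 0.14. The smallest changes were in the complex members Eprs, which charges both glutamate and proline (0.77 ± 0.20, adjusted p = 0.00313), and Qars, which charges glutamine (0.41 ± 0.14, adjusted p = 0.0205). These were also the 2 genes whose tested probe set was not called with aldosterone, at 0.35 ± 0.20 (adjusted p = 0.147) and 0.29 ± 0.14 (adjusted p = 0.0934). Each was called higher there in 3 of 29 other settings. Without vehicle 2 h replicate 1, 16 of 17 cytosolic genes were higher with aldosterone, where 32.9% of all genes were. Vars, the valine enzyme, was not tested, since 1 sample passed the filter level. Its values were between 1.93 and 1.97 in the 12 samples at 2 and 4 h, and at 8 h they were 3.44, 3.61 and 3.31 with aldosterone and 3.55, 4.18 and 2.88 with vehicle.

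**Figure D2:**
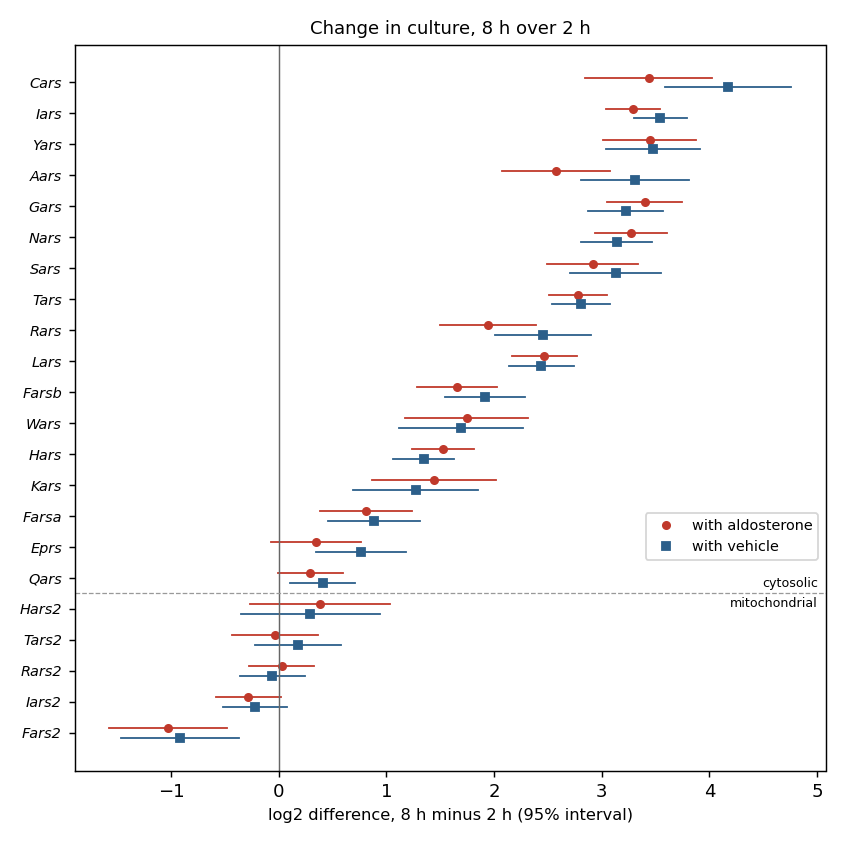
Log2 difference of 8 h minus 2 h (horizontal axis) for the 22 tested genes, cytosolic above and mitochondrial below the dashed line, with aldosterone (red circles) and with vehicle (blue squares). Bars are 95% intervals from the limma fit. The vehicle values run between 4.17 for Cars and 0.41 for Qars among cytosolic genes, and between 0.29 for Hars2 and -0.92 for Fars2 among mitochondrial genes.

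Probe sets of a gene mostly moved together. Fitted over all 11236 probe sets past the filter, 30 of the 32 cytosolic probe sets were higher at 8 h than at 2 h with vehicle and 1 was lower, where 25.6% of all probe sets were higher and 30.7% lower. The exceptions were both from Qars, whose 4 probe sets gave 0.86 ± 0.27, 0.41 ± 0.14, -0.19 ± 0.14 and -0.45 ± 0.16 (in the order given, 2 higher, 1 not called and 1 lower). The one called lower had 3 vehicle 8 h values under the filter level, between 3.51 and 3.79, and passed that level in 4 of 18 samples. The 3 Eprs probe sets gave 0.77 ± 0.20, 1.01 ± 0.22 and 1.19 ± 0.16 with vehicle. With aldosterone, the Eprs probe sets not tested for the gene had means of 9.25 and 9.05 at 2 h and 9.86 and 9.67 at 8 h. In that treatment 27 of the 32 cytosolic probe sets were higher at 8 h over 2 h and 0 were lower. Over all genes, 29.2% were called higher and 27.3% lower in that comparison. The other 3 Wars probe sets were under the filter level until 8 h and were at least 1.98-fold to at least 2.94-fold higher at 8 h with vehicle. They are among the 30 called higher, as are the Farsa and Yars probe sets. All these passed the filter only through later hours, so their rises were bound up with the filter in either treatment. The tested probe sets of Farsb, Wars, Qars, Fars2 and Tars2 carry the Affymetrix mark x, and those of Aars, Eprs and Iars the mark s, both given to probe sets whose probes can match more than 1 transcript.

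Of the 6 tested members of the multi-synthetase complex (Eprs, Iars, Kars, Lars, Qars and Rars), 4 were higher at 8 h than at 2 h with aldosterone (median 1.69) and 6 with vehicle (median 1.86). Of the 11 cytosolic genes outside it, 11 were higher with aldosterone (median 2.78) and 11 with vehicle (median 3.13). The 11 include Farsa and Yars, whose rises were bound up with the filter. The difference between these classes was not tested. Over all genes, 29.2% were called higher at 8 h over 2 h with aldosterone and 26.6% with vehicle. The scaffold genes rose too. Eef1e1, also known as AIMP3, had 5.94, 4.68 and 5.27 at 2 h, 7.66, 7.69 and 7.62 at 4 h and 8.84, 8.81 and 9.02 at 8 h with aldosterone, and 5.77, 4.48 and 5.37 at 2 h, 7.72, 8.00 and 7.64 at 4 h and 9.20, 8.95 and 8.97 at 8 h with vehicle. Its rise was 3.59 ± 0.28 with aldosterone and 3.83 ± 0.28 with vehicle. Aimp2 rose by 1.67 ± 0.21 with aldosterone and 1.68 ± 0.21 with vehicle, and Aimp1 by 0.84 ± 0.15 and 0.68 ± 0.15, so 3 of 3 were called in both treatments.

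Part of the rise was in place by 4 h. At 4 h over 2 h, 11 of 17 cytosolic genes were higher with aldosterone, where 17.3% of all genes were higher and 21.3% lower, and 12 of 17 were higher with vehicle, where the shares were 14.6% and 25.6%. At 8 h over 4 h, 16 of 17 were higher with aldosterone (all genes 21% higher and 16.6% lower) and 16 of 17 with vehicle (all genes 20.7% higher and 17% lower). Without vehicle 2 h replicate 1, 12 of 17 were again higher in vehicle at 4 h over 2 h, with 20.1% of all genes higher and 19.7% lower. The set changed: those in the multi-synthetase complex went from 3 to 4, and those outside it from 9 to 8. Eprs was at 0.64 without that sample, against 0.39 with all samples (adjusted p = 0.129). With aldosterone Eprs was at -0.44 in this step (adjusted p = 0.0902), and it was called lower in 5 of 29 other settings. Leaving out vehicle 2 h replicate 1 was among these settings, and 26.7% of all genes were then called lower. These comparisons share samples, and the counts of 17 include Farsa and Yars, whose rises were bound up with the filter. With aldosterone, the difference at 4 h was 67.5% of that at 8 h for Cars, 55.8% for Aars, 62.4% for Tars and 68% for Iars. It was 36% for Sars, 26% for Lars, -7.01% for Farsb, 16.3% for Kars and 28.2% for Wars. With vehicle the same shares were 78.7% for Cars, 70.6% for Aars, 69.3% for Tars and 68.4% for Iars. They were 33.9% for Sars, 32.3% for Lars, 24.4% for Farsb, 13.1% for Kars and 10.7% for Wars. In both treatments the cysteine, alanine, threonine and isoleucine enzymes had thus made the larger part of their change by 4 h, and the serine, leucine, lysine and tryptophan enzymes and the beta subunit of the phenylalanine enzyme the smaller part. The vehicle shares without vehicle 2 h replicate 1 were 33.3% for Kars and 25.1% for Wars. These shares are descriptions, with no test between enzymes. Farsb at 4 h over 2 h with vehicle (0.47 ± 0.18, adjusted p = 0.0423) fell short of the threshold in 16 of 29 other settings.

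Of the mitochondrial enzymes, Fars2 and Iars2 were called in a comparison over time and Hars2, Rars2 and Tars2 in none. Fars2, for phenylalanine, had 4.71, 5.36 and 5.08 at 2 h, 4.23, 4.15 and 4.17 at 4 h and 4.11, 3.95 and 4.01 at 8 h with aldosterone, and 5.63, 5.37 and 4.26 at 2 h, 4.34, 4.09 and 4.56 at 4 h and 4.14, 4.06 and 4.31 at 8 h with vehicle. The aldosterone samples at 8 h lay below all those at 2 h, while with vehicle replicate 3 at 2 h lay within the 8 h range. The 8 h over 2 h difference was -1.03 ± 0.26 with aldosterone (adjusted p = 0.00278) and -0.92 ± 0.26 with vehicle (adjusted p = 0.00614), or -0.65 ± 0.25 without vehicle 2 h replicate 1 (adjusted p = 0.0359). Iars2, for isoleucine, had 6.33, 6.22 and 6.26 at 2 h, 5.29, 5.72 and 5.44 at 4 h and 6.04, 5.87 and 6.06 at 8 h with aldosterone, and 6.12, 5.98 and 5.97 at 2 h, 5.46, 5.42 and 5.39 at 4 h and 5.92, 5.81 and 5.67 at 8 h with vehicle. All its 4 h samples lay below those at 2 h and 8 h of their treatment. The 4 h over 2 h difference was -0.79 ± 0.14 with aldosterone (adjusted p = 4.01e-04) and -0.60 ± 0.14 with vehicle (adjusted p = 0.00325), and the 8 h over 4 h difference was 0.51 ± 0.14 with aldosterone (adjusted p = 0.00952) and 0.38 ± 0.14 with vehicle (adjusted p = 0.0452). Fars2 and Iars2 were thus the 2 of 5 mitochondrial genes (40%) called lower at 4 h over 2 h in both treatments. Over all genes, 21.3% were called lower in that step with aldosterone and 25.6% with vehicle. Iars2 was the 1 of 5 (20%) called higher at 8 h over 4 h. That is close to the share over all genes, 21% with aldosterone and 20.7% with vehicle. Without vehicle 2 h replicate 1, Fars2 was not called at 4 h over 2 h with vehicle (-0.48 ± 0.25, adjusted p = 0.142).

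Rars2, for arginine, had 5.70, 5.72 and 5.72 at 2 h, 5.72, 5.71 and 5.66 at 4 h and 5.75, 5.74 and 5.72 at 8 h with aldosterone. With vehicle Rars2 had 6.19, 5.68 and 5.72 at 2 h, 5.73, 5.61 and 5.73 at 4 h and 5.82, 5.86 and 5.74 at 8 h. Apart from vehicle 2 h replicate 1, its 17 values lay between 5.61 and 5.86, and its 8 h over 2 h difference was 0.03 ± 0.14 with aldosterone and -0.06 ± 0.14 with vehicle, or 0.10 ± 0.12 without that sample. Tars2, for threonine, had 5.71, 6.13 and 6.05 at 2 h, 5.53, 5.61 and 5.48 at 4 h and 6.12, 5.73 and 5.94 at 8 h with aldosterone, and 5.78, 5.76 and 5.89 at 2 h, 5.68, 5.47 and 5.84 at 4 h and 5.67, 5.87 and 6.43 at 8 h with vehicle. Its differences were -0.03 ± 0.19 and 0.18 ± 0.19, neither called, while another Tars2 probe set gave 0.93 ± 0.18 with vehicle (adjusted p = 0.000357). Hars2, for histidine, had 4.25, 5.25 and 4.64 at 2 h, 4.43, 5.03 and 5.03 at 4 h and 5.02, 5.38 and 4.88 at 8 h with aldosterone, and 5.40, 4.03 and 4.60 at 2 h, 5.11, 4.56 and 4.46 at 4 h and 4.89, 5.00 and 5.03 at 8 h with vehicle. Its groups overlapped, with differences of 0.38 ± 0.31 (95% interval -0.26 to 1.03) and 0.29 ± 0.31 (95% interval -0.35 to 0.94). The vehicle difference without vehicle 2 h replicate 1 was 0.65 ± 0.28 (unadjusted p = 0.0341, adjusted p = 0.0552). Ears2, Pars2 and Sars2, for glutamate, proline and serine, had no value above the filter level on any of their 5 probe sets, which ranged between 2.20 and 3.87 and give no measure of change.

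**Figure D3:**
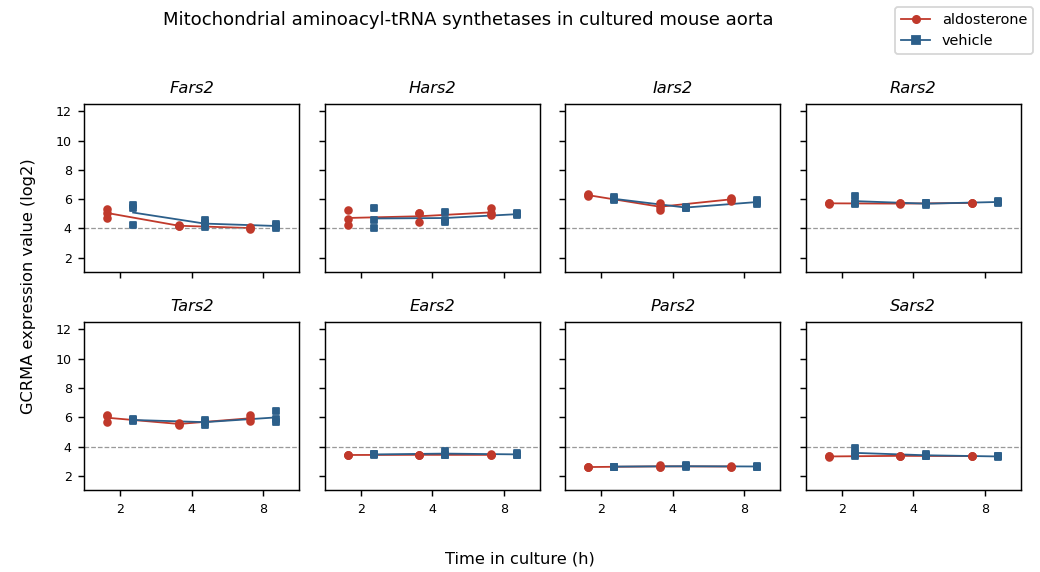
Log2 expression value (vertical axis) of the 8 mitochondrial synthetase genes against hours in culture (horizontal axis, the 3 times evenly spaced). Points are single samples with aldosterone (red circles) or vehicle (blue squares), lines join the 3 group means, and the dashed line is the filter level of 4. Fars2 declines, Iars2 dips at 4 h, Hars2, Rars2 and Tars2 stay between 4.03 and 6.43, and Ears2, Pars2 and Sars2 lie under the dashed line throughout.

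For 5 amino acids both compartments' enzymes were measured, in 6 pairs since the cytosolic phenylalanine enzyme has separate subunit genes. The rise of the cytosolic gene beyond that of its mitochondrial counterpart, averaged over the treatments, was 3.67 for Iars over Iars2, 2.76 for Farsb over Fars2, 2.72 for Tars over Tars2, 2.22 for Rars over Rars2, 1.82 for Farsa over Fars2 and 1.10 for Hars over Hars2. In each pair the cytosolic minus mitochondrial difference was higher in all 3 samples at 8 h than in all 3 at 2 h, with either treatment. A two-sided exact permutation of the hours within each treatment, chosen after the values were seen, gave p = 0.005 for the 5 pairs other than Farsa over Fars2 (0.005 after adjustment over all 6), the smallest the 400 arrangements allow, which full separation of the hours gives by itself. The extra rise without vehicle 2 h replicate 1 was between 1.01 and 3.68. No p is given for Farsa over Fars2, since Farsa at 2 h lay under the filter level in all 6 samples. Fars2 at 8 h lay between 3.95 and 4.31, near the filter level, where a further fall could not be measured.

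Other genes of the pathway are given from lists chosen with earlier results of these data known. Of the ATF4 and amino acid response list, 30 of 34 genes were tested, and at 8 h over 2 h 26 were higher and 2 lower with aldosterone (median 2.34), and 25 higher and 3 lower with vehicle (median 2.55), or 26 and 3 without vehicle 2 h replicate 1. Of the 30, 2 lay under the filter level in all 2 h samples of a treatment, so their rises were bound up with the filter. These were Slc7a11 and Cth with aldosterone, and Slc7a11 and Chac1 with vehicle. With these genes at their bounds, the medians were 2.14 with aldosterone and 2.501 with vehicle. The shares over all genes were 29.2% higher and 27.3% lower with aldosterone, and 26.6% higher and 31.9% lower with vehicle. The list's largest vehicle changes were above those of the synthetases. Psat1, of serine synthesis, had 4.96, 5.05 and 4.76 at 2 h, 8.97, 8.84 and 9.11 at 4 h and 10.92, 10.83 and 11.02 at 8 h with aldosterone, and 3.74, 5.00 and 4.91 at 2 h, 9.36, 8.88 and 9.04 at 4 h and 11.13, 10.81 and 10.70 at 8 h with vehicle, a vehicle rise of 6.33 ± 0.24. Shmt2, the mitochondrial serine hydroxymethyltransferase, rose by 5.51 ± 0.18 with aldosterone and 6.05 ± 0.18 with vehicle. Slc7a5, a transporter of large neutral amino acids, rose by 4.75 ± 0.18 and 4.99 ± 0.18, and Aldh18a1, of proline synthesis, by 3.36 ± 0.14 and 3.87 ± 0.14. Chac1, which degrades glutathione, was under the filter level in vehicle at 2 h and was at least 25.7-fold higher at 8 h (fitted 5.78 ± 0.15).

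Asns, the asparagine synthetase and a standard ATF4 target, had 6.24, 5.35 and 6.24 at 2 h, 8.91, 8.46 and 9.17 at 4 h and 11.40, 11.34 and 11.45 at 8 h with aldosterone. With vehicle Asns had 7.41, 5.93 and 6.35 at 2 h, 9.16, 8.72 and 9.10 at 4 h and 11.58, 11.21 and 11.22 at 8 h, a rise of 4.77 ± 0.30. The mRNA of Atf4 itself, whose protein is controlled mainly by translation, was at 11.61, 12.04 and 11.84 at 2 h, 12.08, 12.38 and 12.18 at 4 h and 12.25, 12.21 and 12.17 at 8 h with aldosterone. With vehicle Atf4 was at 11.53, 12.21 and 12.19 at 2 h, 12.53, 12.40 and 12.46 at 4 h and 12.09, 11.97 and 12.31 at 8 h. Its 8 h over 2 h difference was 0.38 ± 0.16 with aldosterone (adjusted p = 0.0466) and 0.14 ± 0.16 with vehicle (adjusted p = 0.444), or -0.08 without vehicle 2 h replicate 1 (adjusted p = 0.592). The 3 list genes that fell with vehicle, named after their values were seen, were the amino acid transporter Slc38a2 (-0.49 ± 0.10), the kinase gene Eif2ak3 (-0.48 ± 0.15) and the phosphatase subunit gene Ppp1r15a (-0.57 ± 0.14).

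Other genes of translation are read against the same shares over all genes, 29.2% higher with aldosterone and 26.6% higher with vehicle. Of 5 tested cytosolic elongation factor genes (6 listed), 2 were higher at 8 h over 2 h with aldosterone (median 0.33) and 4 with vehicle (median 0.37), among them Eif5a at 0.78 ± 0.09 and Eef1b2 at 0.68 ± 0.23 with vehicle, Eef2 at 0.37 ± 0.14 and Eef1a1 at 0.35 ± 0.11. Without vehicle 2 h replicate 1, 4 of these 5 were higher with aldosterone and 5 of 5 with vehicle, and Eef1b2 was at 0.26 (adjusted p = 0.0376). Of 5 tested genes of mitochondrial translation (14 listed), 2 were higher with aldosterone (median 0.29) and 2 with vehicle (median 0.51), where Mrrf, the ribosome recycling factor, gave 0.98 ± 0.15 and Gfm1, an elongation factor, 0.51 ± 0.20; without that sample 3 of 5 were higher with vehicle. Of 4 tested genes of transfer RNA repair, editing and special charging (8 listed), 1 was higher and 2 lower with aldosterone (median -0.45), and 1 was higher and 1 lower with vehicle (median -0.22). With vehicle these were Trnt1, which adds the CCA end, at 0.93 ± 0.13, and Dtd1, which removes D-amino acids, at -0.84 ± 0.17.

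Markers of the cell types of the vessel moved with time in culture as well. With vehicle at 8 h over 2 h, 5 of 7 smooth muscle, 4 of 5 endothelial, 5 of 5 fibroblast, 4 of 5 macrophage and 4 of 4 adipocyte markers that were tested were lower, 1 smooth muscle marker was higher, and 0 of 2 striated muscle markers were called, although their mean reached 7.06 in 1 aldosterone 8 h sample. Without vehicle 2 h replicate 1 the counts lower were 6 of 7 smooth muscle, 4 of 5 endothelial, 5 of 5 fibroblast, 3 of 5 macrophage and 4 of 4 adipocyte markers, and 1 endothelial marker was higher. Of all genes, 31.9% were lower in that comparison, and 28.6% without that sample. The mean smooth muscle marker level was 10.82 to 11.13 at 8 h and 12.02 to 12.11 at 2 h with aldosterone, and 10.87 to 11.19 at 8 h and 11.74 to 12.00 at 2 h with vehicle. The mean macrophage marker level was 4.97 to 5.30 at 8 h and 6.27 to 6.55 at 2 h with aldosterone, and 4.71 to 4.98 at 8 h and 6.36 to 7.13 at 2 h with vehicle. The Gapdh control probe sets, a measure of RNA integrity, differed between the 3' and 5' ends (log2) by 0.45 to 0.49 at 8 h and 0.57 to 0.67 at 2 h with aldosterone, and 0.36 to 0.53 at 8 h and 0.56 to 0.64 at 2 h with vehicle. The actin control probe sets differed in the same way by 1.72 to 1.82 at 8 h and 1.77 to 1.88 at 2 h with aldosterone. With vehicle they differed by 1.51 to 2.02 at 8 h and 1.63 to 2.11 at 2 h, so the actin ranges overlapped between hours. The part of the marker and Gapdh shifts in the synthetase changes was not tested.

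Aldosterone against vehicle gave no called synthetase at any hour. At 2 h, 0 of 22 genes were called, where 0.0705% of all genes were, and 4 had an unadjusted p under 0.05. At 4 h it was 0 of 22 (0.24% of all genes, 0 unadjusted) and at 8 h 0 of 22 (1% of all genes, 0 unadjusted). The mean of the 3 differences gave 0 of 22 (1.1% of all genes, 0 unadjusted), and the F test of a change of the aldosterone effect between hours gave 0 of 22 (0.155% of all genes, 2 unadjusted). At 8 h the estimates ran between -0.26 and 0.19, and the lowest and highest bounds of the 22 genes' 95% intervals were -0.71 and 0.77. Single intervals were narrower, such as -0.32 to 0.17 for Iars and -0.29 to 0.26 for Tars. The 3 smallest p at 8 h belonged to Iars2 (0.19 ± 0.14, adjusted p = 1), Rars (-0.26 ± 0.21) and Sars (-0.20 ± 0.20), all with overlapping groups. Among all 39 probe sets, 1 was called at 8 h, a Wars probe set with 4.72, 4.63 and 4.81 with aldosterone and 5.26, 5.54 and 5.21 with vehicle (-0.61 ± 0.14, adjusted p = 0.0488, 1.01% of all probe sets called), while the Wars probe set tested for the gene gave -0.07 ± 0.27.

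**Figure D4:**
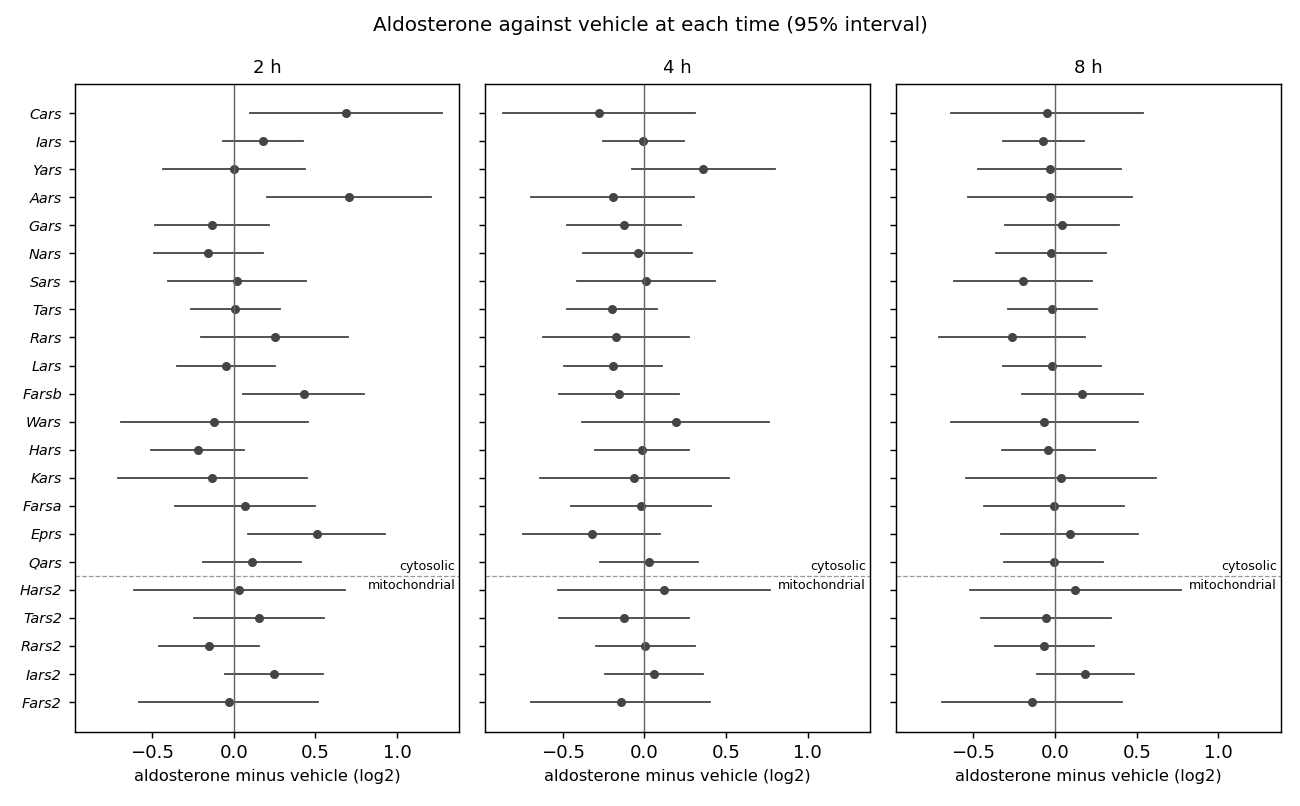
Log2 difference of aldosterone minus vehicle (horizontal axis) at 2, 4 and 8 h for the 22 tested genes, cytosolic above and mitochondrial below the dashed line. Points are estimates and bars 95% intervals from the limma fit. The intervals include 0 for all 22 genes at 4 and 8 h, and lie above 0 for 4 cytosolic genes at 2 h.

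The 4 genes with an unadjusted p under 0.05 at 2 h were Aars (0.70 ± 0.24, unadjusted p = 0.00856, adjusted p = 0.285), Eprs (0.51 ± 0.20, adjusted p = 0.355), Cars (0.69 ± 0.28, adjusted p = 0.368) and Farsb (0.43 ± 0.18, adjusted p = 0.368), all cytosolic. A second Aars probe set gave 0.11 ± 0.21 at 2 h. For Cars, the aldosterone samples at 2 h had 5.34, 4.93 and 5.63 and the vehicle samples 5.43, 4.14 and 4.27, so that replicate 1 alone lay within the aldosterone range. Without it, Cars was called, at 1.09 ± 0.22 (adjusted p = 0.0347), the 1 synthetase of 22, where 0.409% of all genes were called. Eprs was then 0.76 ± 0.17 (adjusted p = 0.0575), Rars 0.59 ± 0.14 (adjusted p = 0.0744), Aars 0.31 ± 0.15 (adjusted p = 0.356) and Farsb 0.40 ± 0.19 (adjusted p = 0.338). The Cars difference was -0.28 ± 0.28 at 4 h and -0.05 ± 0.28 at 8 h, and the F test between hours gave adjusted p = 0.884 with all samples and 0.115 (unadjusted p = 4.88e-04) without vehicle 2 h replicate 1. Of the 30 tested genes of the ATF4 list, 1 was called higher with aldosterone at 2 h, Chac1, and 0 at 4 h and 8 h. Over all genes, 0.0705% were called at 2 h. Chac1 had 4.56, 4.33 and 3.98 with aldosterone and 2.90, 2.93 and 2.89 with vehicle. The vehicle values and the aldosterone value of 3.98 lay under the filter level, so Chac1 is given as at least 1.22-fold higher.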

How the data were processed

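RNA of 18 mouse aorta samples (3 pools for each of 6 groups of treatment and hour, grouped by the sample titles) was measured on 1-colour Affymetrix arrays. Values were used as the authors deposited them, on a log2 scale, from GCRMA per the submitters' processing notes, with version and settings not given in the sources used here. GCRMA subtracts estimated background, so changes near its floor are understated.

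Control probe sets (64) and probe sets without exactly 1 annotated gene were left out, and 20351 of 20380 1-gene probe sets matched RefSeq. Probe sets above 4 in at least 3 samples were kept (11236), and the one with the highest mean stood for its gene (7092 genes). The 6 group means were fitted with limma 3.58.1 in R 4.3.3 (intensity trend, 12 residual and 17.2 total degrees of freedom, no minimum fold), with Benjamini-Hochberg adjustment and a threshold of 0.05. The fit was also run on simulated data with independent normal errors, which held no array that stood apart. The number of arrays limits the precision.

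Where all samples of a group lay at or under 4, a fold is taken between the other group's mean log2 value and 4, written "at least". Values in every sample are given for the 10 cytosolic and 5 mitochondrial genes with the largest vehicle change at 8 h, Gars, Kars and, as no synthetase was called for aldosterone, the 3 smallest p at 8 h; pathway genes are up to 5 per list with the smallest p in vehicle at 8 h over 2 h, and Atf4 and Asns. Members and lists were chosen with earlier results of these data known. The labels do not say that a replicate number marks a shared day or litter, so numbers were not treated as pairs. Deviations from the group means had a median correlation of -0.0129 between same-numbered samples (highest 0.282). Between differently numbered samples it was 0.00655 (highest 0.178).

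The alternatives tried were an untrended prior, no filter or one at 6, other probe set choices, values under 4 set to 4, further normalization, array weights, a replicate block, fits to the compared groups alone, and leaving out each sample; the test within amino acid pairs was added after seeing the data.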

Additional observations from a re-analysis of the deposited data

How the results depend on the processing

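Over up to 29 other settings per comparison, no called synthetase changed sign. The count called for aldosterone over vehicle stayed 0 of 22 at 4 h, at 8 h, on average and between hours. At 2 h it was 2 (Eprs and Cars) with array weights and 1 (Cars) without vehicle 2 h replicate 1, against 0 otherwise, and leaving out single samples gave 0 to 1. Leaving out single samples gave 16 to 17 called at 8 h over 2 h with aldosterone and 17 to 18 with vehicle, and 12 to 17 at 8 h over 4 h with vehicle. The replicate number as a block left 0 called at each hour for aldosterone over vehicle, and 16 called at 8 h over 2 h with aldosterone and 18 with vehicle. Single calls that often fell short were Farsb at 4 h over 2 h (16 of 29 settings) and Qars and Iars2 at 8 h over 4 h (16 and 17 of 29), all with vehicle. Qars at 8 h over 2 h with vehicle, 1 of the 17 cytosolic calls, fell short in 6 of 29, with values down to 0.16. Of the mitochondrial genes, Fars2 at 8 h over 2 h with vehicle fell short in 2 of 28, Fars2 at 4 h over 2 h with vehicle fell short in 9 of 28, and Tars2 was called at 8 h over 2 h with vehicle in 1 of 29. The causes were not tested.

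The number of all 7092 genes called moved more. Over the settings it ran between 0 and 54 at 2 h against 5 in the reported fit, between 5 and 42 at 4 h against 17, between 33 and 222 at 8 h against 71, between 53 and 260 on average against 78, and between 8 and 29 between hours against 11, each highest with array weights. At 4 h over 2 h with vehicle it ran between 1331 (fit to those samples alone) and 3268, against 2852. Centring each array on its median moved the median of all genes at 4 h over 2 h with vehicle to 0.02, against -0.13, and the share of calls that were higher to 50.3%, against 36.4%. For aldosterone at 2 h that share was 80%, against 60%, on few calls. Genes under the filter level have no measured change, which limits 4 of the 26 synthetases.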
